A study of Mus musculus with 14 samples.

Results

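The mitochondrial ribosome is built from proteins that are encoded in the nucleus, translated in the cytosol and imported. It consists of a small subunit, which binds the mRNA and holds the decoding centre, and a large subunit, which joins the amino acids and holds the exit tunnel. It translates only the mRNAs of the mitochondrial genome, which encode core subunits of the respiratory chain and of ATP synthase. Some of its proteins descend from bacterial ribosomal proteins, and others are found only in mitochondria. The genes described here are the 76 of 23337 measured symbols named Mrpl or Mrps with a number and at most letters after it. Of these, 47 carried an Mrpl symbol (large subunit) and 29 an Mrps symbol (small subunit). By the known structure of the mammalian ribosome, Mrps18a and Mrps30 belong to the large subunit, which gives 49 large and 26 small subunit genes. Mrps36 belongs to neither, since its product is now known as a component of the alpha-ketoglutarate dehydrogenase complex. By place in the ribosome, 46 had a bacterial counterpart and 29 were specific to mitochondria. The genes lay on 17 chromosomes.

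RNA was sequenced from dissected brain regions of C57Bl/6 mice aged 6 months. In striatum, 3 Thap1 conditional knockout (cKO) libraries were set against 3 wildtype (WT) libraries from littermates, and in cerebellum 4 Thap1 cKO libraries were set against 4 WT libraries. THAP1, a transcription factor with a DNA-binding THAP domain, is mutated in the movement disorder DYT6 dystonia. The sources used here give neither the Cre driver nor the deleted part of Thap1. They do not say whether replicates came from different animals, so the p-values refer to the spread among these libraries.

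Each striatal library held 12595941 to 14258141 counts and each cerebellar library 19458954 to 28099205. Thap1 stood at 5.24, 7.65 and 3.76 CPM (counts scaled to a common library size) in cKO striatum, against 13.2, 14.4 and 15.3 CPM in WT striatum. In cerebellum it stood at 6.84 to 7.79 CPM in cKO, against 8.15 to 10.5 CPM in WT. In both tissues every cKO library lay below every WT library. Region markers matched the dissections: the summed level of 4 striatal projection neuron genes was 2515 to 3638 CPM in striatum and 129.5 to 171.5 CPM in cerebellum. One library stood apart. Striatum WT replicate 1 stood off from WT replicates 2 and 3, with a chi-square over genes of 28.6 and 28.2 per degree of freedom, against 6.18 to 10.97 for the other pairs within striatal groups. Striatal results are therefore given with and without it.

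In cerebellum, 3 of the 76 genes passed the test between genotypes (3.95%), against 7.59% of all 14775 genes tested, so calls were not more frequent in the family than among all genes. Mrpl36 and Mrpl47 rose in cKO and Mrpl18 fell. The promoters of these genes are shown first, because THAP1 is a DNA-binding factor. Each is the stretch from 250 bases before to 50 bases after the start of the gene in RefSeq (GRCm38.p6), on the strand of the gene. It covers chr13:73330759-73331058 on the plus strand for Mrpl36, chr3:32736706-32737005 on the minus strand for Mrpl47 and chr17:12916042-12916341 on the minus strand for Mrpl18. These RefSeq starts lie inside the wider gene spans of GENCODE given below, which begin further upstream. Capitals mark matches to a THAP1 motif (TNNGGGCA), an ETS family motif (CCGGAAG), a YY1 motif (AAGATGGC) or the palindromic NRF1 motif, each searched on both strands.
Mrpl36: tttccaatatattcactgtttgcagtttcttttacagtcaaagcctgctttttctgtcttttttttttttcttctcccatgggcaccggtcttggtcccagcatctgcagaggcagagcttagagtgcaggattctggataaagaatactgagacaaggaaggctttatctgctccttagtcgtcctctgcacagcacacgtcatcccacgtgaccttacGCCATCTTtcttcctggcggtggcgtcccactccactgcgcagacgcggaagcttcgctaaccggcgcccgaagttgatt
Mrpl47: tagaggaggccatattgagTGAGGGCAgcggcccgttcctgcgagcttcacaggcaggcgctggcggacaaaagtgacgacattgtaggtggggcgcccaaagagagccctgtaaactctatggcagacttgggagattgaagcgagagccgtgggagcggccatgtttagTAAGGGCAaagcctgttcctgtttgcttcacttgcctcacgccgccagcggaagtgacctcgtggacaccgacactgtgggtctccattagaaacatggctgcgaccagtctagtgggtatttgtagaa
Mrpl18: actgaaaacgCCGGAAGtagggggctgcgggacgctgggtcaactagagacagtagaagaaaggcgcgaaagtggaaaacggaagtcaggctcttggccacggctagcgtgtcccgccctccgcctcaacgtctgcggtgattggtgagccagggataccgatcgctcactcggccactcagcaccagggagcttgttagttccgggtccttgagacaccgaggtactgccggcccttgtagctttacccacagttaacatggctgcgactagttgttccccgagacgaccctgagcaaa
The capitals in Mrpl36 are a YY1 match on the opposite strand, 30 bases before the start. Those in Mrpl47 are a pair of THAP1 matches, TGAGGGCA at 231 and TAAGGGCA at 79 bases before the start. Those in Mrpl18 are an ETS match, 240 bases before the start.

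A promoter was found for 67 of the 76 genes. The THAP1 motif was present in 10 of these (14.9%), against 15.7% of the promoters of all 27025 genes in the same window. Mrpl47 was the only one of the 67 with 2 or more THAP1 matches, which 1.45% of all promoters had. The motifs of 3 other factors were more frequent than in all promoters, which were not limited to genes expressed in these tissues. The ETS motif, the site of the nuclear respiratory factor GABP among others, was in 24 of 67 (35.8%, against 9.93%), with 13 of 41 Mrpl and 11 of 26 Mrps promoters. The YY1 motif was in 12 of 67 (17.9%, against 3.19%), and the NRF1 motif in 3 of 67 (4.48%, against 1.07%). These are matches of letters, and binding was not measured.

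Mrpl36 (chromosome 13, 73328513 to 73332178, GRCm38), the counterpart of the small bacterial protein L36, showed the clearest difference. In cerebellum it stood at 21.4, 24.0, 25.1 and 24.0 CPM in cKO, against 17.9, 19.3, 18.2 and 18.5 CPM in WT. All cKO libraries lay above all WT libraries. The mean was 23.6 ± 1.60 CPM in cKO and 18.5 ± 0.576 CPM in WT (SD, n = 4 each), so its log2 fold change came to 0.36 (SE 0.0628, adjusted p = 0.00201, edgeR's quasi-likelihood test with Benjamini-Hochberg adjustment over 14775 genes). In striatum it stood at 22.6, 24.5 and 23.7 CPM in cKO, against 9.36, 16.5 and 16.6 CPM in WT. The striatal groups did not overlap either, and WT replicate 1 held the lowest value. The striatal log2 fold change was 0.74 (SE 0.201) and did not pass (adjusted p = 0.337). Without WT replicate 1 it was 0.52 (SE 0.0993, adjusted p = 0.0447), which passed. This call depended on which library was left out. With each striatal library left out in turn, the log2 fold change ran from 0.52 to 0.86. The edgeR adjusted p ran from 0.0447 to 0.929. The difference between the tissues in 1 model was −0.39 (cerebellum minus striatum, adjusted p = 0.450), and −0.16 without striatum WT replicate 1.

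Mrpl47 (chromosome 3, 32725397 to 32737605), the counterpart of bacterial L29 near the exit tunnel, stood in cerebellum at 14.6, 15.4, 15.2 and 16.6 CPM in cKO, against 12.5, 12.7, 13.0 and 14.02 CPM in WT. The groups did not overlap, and the log2 fold change was 0.24 (SE 0.0691, edgeR adjusted p = 0.0416). In striatum it stood at 13.96, 15.5 and 13.8 CPM in cKO, against 11.2, 12.6 and 12.8 CPM in WT. These groups did not overlap, and the log2 fold change of 0.25 did not pass (edgeR adjusted p = 0.740). Without WT replicate 1 it was 0.19 (edgeR adjusted p = 0.747).

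Mrpl18 (chromosome 17, 12911349 to 12916345), the counterpart of bacterial L18, stood in cerebellum at 31.3, 30.4, 32.1 and 34.9 CPM in cKO, against 36.0, 34.4, 38.8 and 37.3 CPM in WT. The highest cKO library lay above the lowest WT library, so the groups overlapped. The log2 fold change was −0.19 (SE 0.0539, edgeR adjusted p = 0.0472). In striatum it stood at 25.9, 27.1 and 22.3 CPM in cKO, against 14.2, 25.6 and 27.6 CPM in WT. The striatal log2 fold change was 0.16 with all libraries and −0.08 without WT replicate 1, and neither passed (edgeR adjusted p = 0.856 with all libraries).

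**Figure D1:**
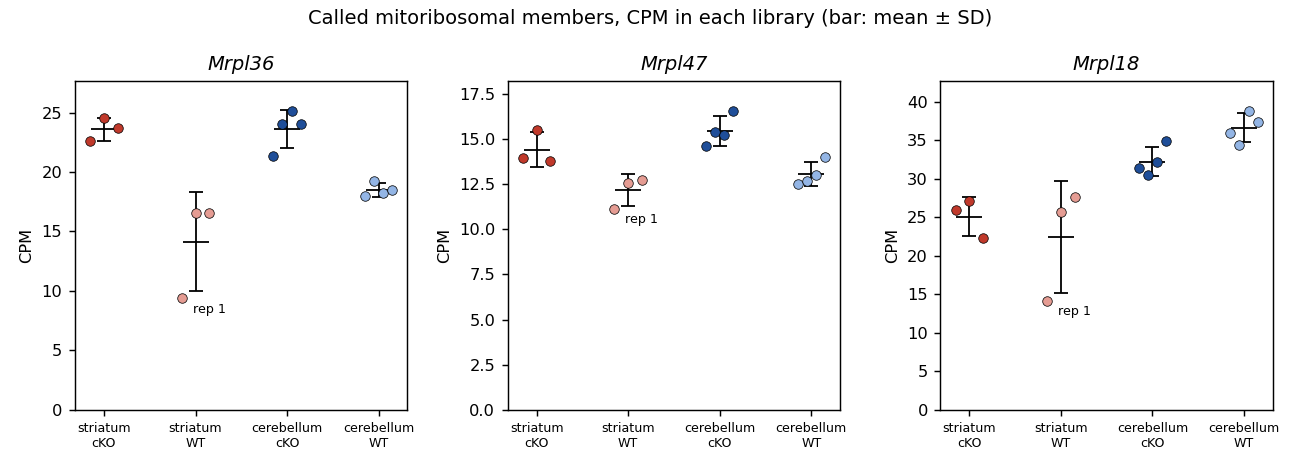
Level in CPM (vertical axis, from 0) of Mrpl36, Mrpl47 and Mrpl18 in each library of the 4 groups, with points for libraries and bars for the mean ± SD. Mrpl36 is higher in every cKO library than in any WT library of the same tissue, and striatum WT replicate 1 is the lowest point of each striatal set.

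The calls for Mrpl47 and Mrpl18 were close to the threshold. Leaving out 1 cerebellar library at a time, Mrpl36 passed each time (edgeR adjusted p from 0.00118 to 0.00917). In 1 model of all 14 libraries it did not pass (log2 fold change 0.34, edgeR adjusted p = 0.237), with 1.63% of all genes called there. Mrpl47 passed only without WT replicate 4 (adjusted p = 0.0312) and reached adjusted p = 0.130 without cKO replicate 4. Mrpl18 passed only without WT replicate 2 (0.0256) or cKO replicate 4 (0.0227) and reached 0.160 without WT replicate 3. The exons of each of these genes overlap a neighbour on the opposite strand. Mrpl36 shares 30 bases with Ndufs6, Mrpl47 shares 616 bases with Ndufb5, and Mrpl18 shares 141 bases with Tcp1. Mrpl47 also overlaps Actl6a, by bases that the 616 do not include. Whether the counting used strand is not given, so reads of the shared bases are of uncertain origin. The neighbours did not pass in cerebellum: the log2 fold change was 0.10 for Ndufs6 (edgeR adjusted p = 0.308), 0.05 for Ndufb5 (0.412), 0.04 for Actl6a (0.778) and −0.0024 for Tcp1 (0.979). An overlap with a neighbour on the opposite strand was present in 22 of the 76 genes and one on the same strand only in 4. None of the other 50 genes passed, beside 7.59% of all genes. How often genes with such an overlap were called among all genes was not tested.

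The 2 higher genes in cerebellum compare with 2.63% of all genes called higher, and the 1 lower gene with 4.96% called lower. At an unadjusted p under 0.05 the count was 5 of 76 (6.58%), with Mrps5 and Mrpl27 as the others, against 22.5% of all genes. Mrps5, the counterpart of bacterial S5, averaged 26.9 ± 1.06 CPM in cKO and 24.3 ± 0.850 CPM in WT (SD, n = 4 each), without overlap (log2 fold change 0.14, edgeR adjusted p = 0.116). The log2 fold changes of the 76 genes ran from −0.23 for Mrpl23, one of the least expressed, to 0.36 for Mrpl36. Their median was 0.03, with 0.03 for Mrpl and 0.0090 for Mrps genes, against 0.0044 for all genes. The 3 called genes were 6.38% of the 47 Mrpl genes, and none of the 29 Mrps genes passed. Libraries did not overlap between genotypes for 4 genes higher in cKO (Mrpl36, Mrpl47, Mrpl51 and Mrps5) and 2 lower (Mrpl24 and Mrps22), against 6.38% and 7.96% of all genes. The family's median coefficient of variation in cerebellum was 4.49% in cKO and 4.70% in WT, against 5.41% and 6.18% for all tested genes. Its median SE of the log2 fold change was 0.0556, against 0.0630 for all tested genes.

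Markers of other cell types moved with genotype in the same libraries. In cerebellum the called markers were of myelin, astrocytes and, with Col1a2 higher, 1 of 4 of meninges. Of 6 myelin markers, 5 were called lower in cKO, and their summed level was 3819 to 4367 CPM in cKO against 4452 to 4913 CPM in WT. Of 4 astrocyte markers, Gfap and Aqp4 were called higher and Slc1a3 lower, with summed levels of 2583 to 3006 CPM in cKO against 2544 to 2700 CPM in WT. In striatum the myelin markers summed to 4195 to 5209 CPM in cKO against 6621 to 8141 CPM in WT, with 3 of 6 called lower (5 of 6 without WT replicate 1). Of the 4 astrocyte markers none was called in striatum, and without WT replicate 1 Aqp4 alone was called higher (log2 fold change 0.65, edgeR adjusted p = 0.0165). The 4 choroid plexus markers summed to 156.4, 22.6 and 144.4 CPM in cKO striatum, against 26.9, 6.66 and 16.6 CPM in WT striatum, with none called. In bulk tissue, fewer cells of a type and less RNA per cell cannot be told apart, and the part of these markers in the values of the mitoribosomal genes, the striatal Mrpl36 value included, was not tested.

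In striatum, none of the 74 genes tested passed between genotypes, against 0.384% of all 14080 genes (0.0639% higher and 0.320% lower in cKO). Mrpl23 and Mrps36 were below the filter on low counts, with 4 to 24 and 1 to 17 counts per library over all 14 libraries. At an unadjusted p under 0.05 the count was 2 of 74 (2.70%), Mrpl36 and Mrpl42, against 7.24% of all genes. DESeq2 also called none. The log2 fold change was above 0 for all 74, from 0.0067 for Mrpl1 to 0.74 for Mrpl36. The median was 0.19 for the whole family, for the Mrpl genes and for the Mrps genes, against 0.0024 for all genes. Libraries did not overlap between genotypes for 11 genes higher in cKO and for none lower, against 6.85% and 8.20% of all genes. The 11 were Mrpl3, Mrpl12, Mrpl20, Mrpl27, Mrpl36, Mrpl42, Mrpl47, Mrpl49, Mrps5, Mrps14 and Mrps21.

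This common direction rested on WT replicate 1. Without it the median was 0.02 (0.02 for Mrpl and −0.0036 for Mrps genes), with 41 genes above 0 and 34 below. Of 75 genes then tested, Mrpl36 alone passed (1.33%), against 0.856% of all genes. Mrpl12, the counterpart of the bacterial stalk protein L7/L12, had a log2 fold change of 0.35 with all libraries and 0.09 without it. Mrps28 had the highest value of the Mrps genes, 0.52 with an SE of 0.374, and 0.16 without that library. Mrpl42, a protein specific to mitochondria, stood at 20.8, 22.6 and 22.8 CPM in cKO, against 12.9, 17.8 and 20.3 CPM in WT, a log2 fold change of 0.38 (edgeR adjusted p = 0.680), and 0.22 without WT replicate 1. Over the 74 genes, groups without that library did not overlap for 11 higher and 3 lower in cKO, against 11.7% and 13.1% of all genes.

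**Figure D2:**
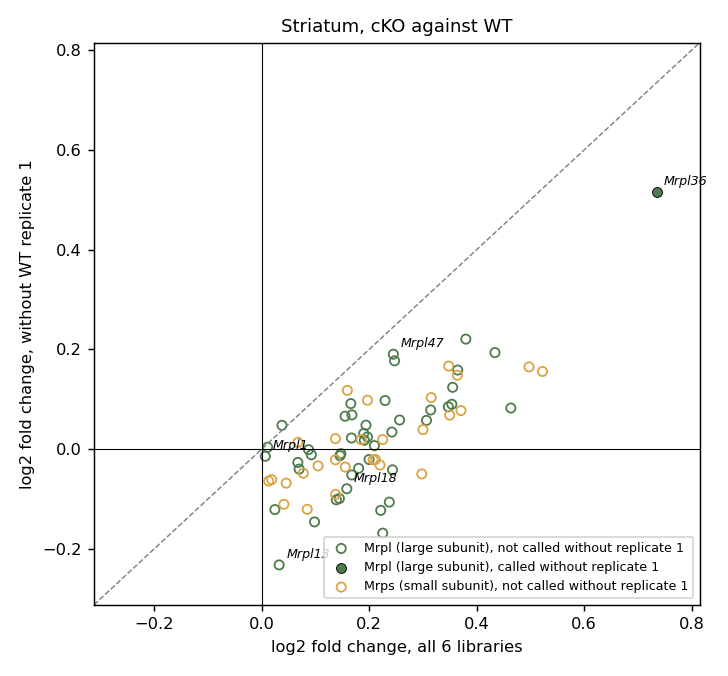
Striatal log2 fold change of each gene (cKO over WT), with all 6 libraries on the horizontal axis and without WT replicate 1 on the vertical axis; the dashed line marks equal values and filled points passed without that library. All points lie to the right of 0 and are spread about 0 vertically, with Mrpl36 alone filled.

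The summed level showed the same library. Striatum cKO libraries held 1776 to 1853 CPM of mitoribosomal mRNA in all, against 1181 CPM in WT replicate 1 and 1792 and 1811 CPM in WT replicates 2 and 3. The Mrpl genes summed to 1192 to 1246 CPM in cKO striatum, against 792.7, 1200 and 1194 CPM in WT. The Mrps genes summed to 584.3 to 622 CPM in cKO striatum, against 388, 591.6 and 617.5 CPM in WT. Both subunits were low in WT replicate 1 in the same proportion: the ratio of the Mrpl to the Mrps sum was 1.93 to 2.05 in cKO striatum and 1.93 to 2.04 in WT striatum, with 2.04 in WT replicate 1. In cerebellum the ratio was 1.96 to 2.01 in both genotypes, and the family summed to 2008 to 2081 CPM in cKO against 1973 to 2038 CPM in WT.

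**Figure D3:**
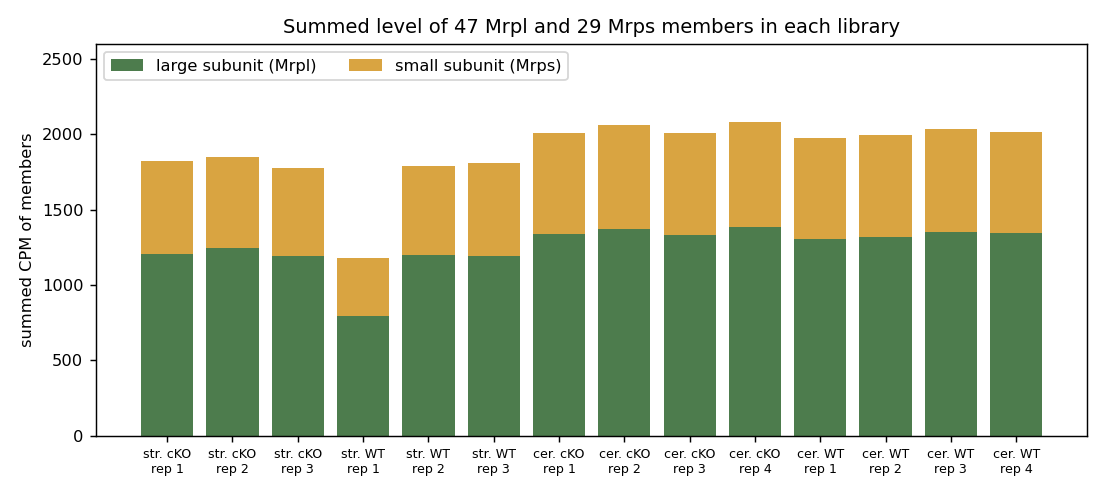
Summed CPM (vertical axis, from 0) of the 47 Mrpl and 29 Mrps genes in each library, scaled within each tissue, with the Mrpl sum below and the Mrps sum stacked on it. Striatum WT replicate 1 reaches 1181 CPM, and the other 5 striatal libraries reach 1776 to 1853 CPM.

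WT replicate 1 held the lowest of the 6 striatal values for 71 of the 74 genes (95.9%), which was so for 33.8% of all genes. The exceptions were Mrpl19, Mrpl35 and Mrps18b. Set against the mean of WT replicates 2 and 3 on the log2 CPM scale (prior count of 2), the median of the family was −0.73, which is 60.4% of their level. It was −0.73 for Mrpl and −0.72 for Mrps genes, while the median of all genes was −0.0015. WT replicate 2 minus WT replicate 3 gave −0.04. Mrpl52, a large subunit protein specific to mitochondria, was the lowest, at 5.62 CPM in WT replicate 1 against 23.02 and 18.1 CPM in WT replicates 2 and 3, a difference of −1.83. Mrpl54, also specific to mitochondria, followed at −1.75, and Mrps28 at −1.60. At the other end, Mrpl35 stood at 33.9 CPM against 34.5 and 32.4 CPM, a difference of 0.02.

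The library also showed a trend with gene length. Over all tested genes its log2 level, relative to the striatal mean, rose by 0.22 for each doubling of exon length, and over the mitoribosomal genes by 0.16. In the other striatal libraries the slopes over all genes ran from −0.06 to −0.03, and in cerebellum from −0.0079 to 0.0081. The mitoribosomal genes were short, with a median exon length of 2213.5 bases against 3392 bases for all symbols and a range from 607 to 8631 bases. Over the 74 genes, the deviation of WT replicate 1 from the other WT libraries had a Pearson correlation of 0.47 and a Spearman correlation of 0.49 with log2 exon length, as a description of genes that share these libraries. The 37 genes below the median exon length had a median deviation of −0.85, and the 37 above it −0.54. The length trend of all genes, read at the lengths of the family, came to a median of −0.34. The family lay below it by a median of 0.28, with 62 genes under the trend and 12 at or above it. Among genes with exon lengths of 7797 to 10078 bases, the 5 of the family had a median of −0.75 and all genes a median of 0.20. These 5 were Mrpl13, Mrpl15, Mrpl48, Mrps10 and Mrps35. Mrpl13 and Mrps10 were long only over all exons, with principal transcripts of 1223 and 1018 bases. Those of Mrpl15, Mrpl48 and Mrps35 were 4203, 4285 and 4162 bases, above the median of 3074 bases for all genes. In WT replicate 1 these genes deviated by −0.62, −0.92 and −0.75. Mrpl33, with an exon length of 7326 bases that includes minor transcripts, deviated by −1.49. With the length of the principal transcript in place of all exons, the correlation was 0.61, the trend at the family's lengths was −0.52 and 52 genes lay under it.

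**Figure D4:**
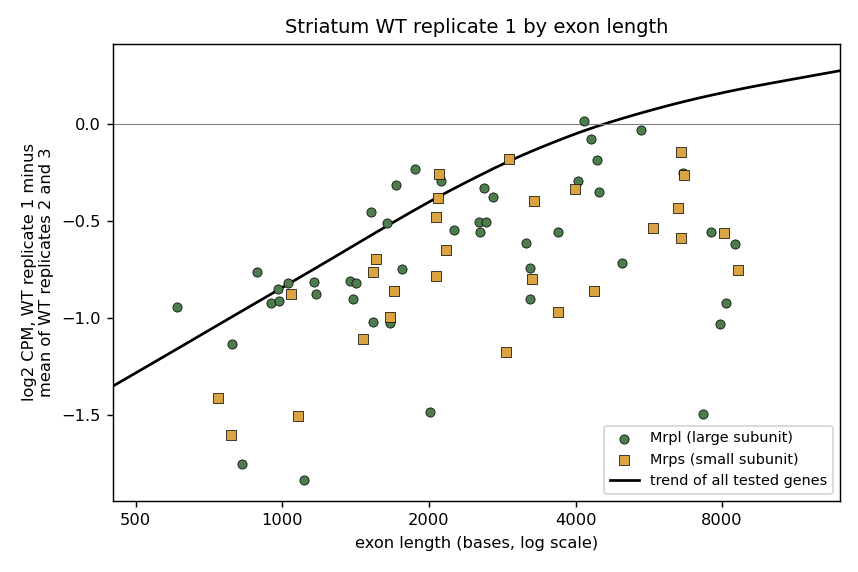
Difference in log2 CPM between striatum WT replicate 1 and the mean of WT replicates 2 and 3 (vertical axis) against exon length (horizontal log axis) for the 74 tested genes, with the trend of all tested genes as a line. Most points lie under the line, at both short and long exon lengths, and Mrpl35 lies closest to 0.

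The cytosolic ribosomal proteins, many of them also short, were lower still in WT replicate 1, with a median deviation of −1.32. Their summed level was 1629 CPM, against 3789 and 3794 CPM in WT replicates 2 and 3. Among genes with exon lengths of 67 to 1847 bases, 37 cytosolic genes had a median of −1.41 and all genes −0.64. The 29 mitoribosomal genes there had a median of −0.88. The part of length in this was not tested. With each library's length trend removed, the striatal genotype median of the family was 0.11, with 54 of 74 genes above 0 and none called, against 0.632% of all genes. Mrpl36 then had a log2 fold change of 0.51 (edgeR adjusted p = 0.0631). Removing the exon length trend therefore left more of the common direction than leaving out the library did (73% of genes above 0, against 54.7%). With the trend on transcript length removed, 62.2% of genes lay above 0, which was nearer to the value without the library. Cell type markers also differed in WT replicate 1. The striatal projection neuron genes summed to 2515 CPM in it, against 3372 and 3638 CPM in WT replicates 2 and 3. The myelin markers summed to 8141 CPM, against 6621 and 7430 CPM, the 4 meningeal markers to 41.4 CPM, against 18.3 and 18.4 CPM, and the 3 endothelial markers to 135.9 CPM, against 96.7 and 127.1 CPM. The part of these markers in the deviation was not tested.

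The tissues were compared directly in 1 model of all 14 libraries. None of the 76 genes passed for a difference in the genotype effect (cerebellum minus striatum), against 0.390% of 15401 genes (0.240% higher and 0.149% lower), and 1 (Mrps22, 1.32%) had an unadjusted p under 0.05, against 11.6% of all genes. The difference was below 0 for 75 of 76 genes, with a median of −0.20. Without striatum WT replicate 1 the median was 0.0017, with 40 genes above 0 and 36 below, and again none passed, against 0.694% of all genes. For Mrpl47 the difference was −0.02 (edgeR adjusted p = 0.976), and for Mrpl18 it was −0.36 (0.560).

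Between the WT tissues, the levels of many genes of the family differed, though fewer than among all genes. Of 75 tested, 18 were higher and 3 lower in WT cerebellum than in WT striatum (28%), against 64.2% of 15031 genes (32.7% higher and 31.5% lower). Tissue and any separate sequencing of the tissues cannot be told apart. The median log2 difference was 0.25, with 0.26 for Mrpl and 0.24 for Mrps genes. Mrps22, a small subunit protein specific to mitochondria, stood at 24.8, 24.6, 25.3 and 24.7 CPM in WT cerebellum, against 13.5, 16.6 and 17.6 CPM in WT striatum, scaled over all 14 libraries. The groups lay far apart, and the log2 difference was 0.64 (SE 0.1003, edgeR adjusted p = 0.000344). Mrpl24, the counterpart of bacterial L24, went the other way, at 22.7, 22.4, 22.3 and 22.8 CPM in WT cerebellum, against 26.7, 42.1 and 36.5 CPM in WT striatum (log2 difference −0.64, edgeR adjusted p = 0.00174). Of the exon bases of Mrpl24, 26.3% overlap Rrnad1 on the opposite strand, so reads of these bases are of uncertain origin. The next largest differences among the genes called higher were in Mrpl48 (0.60), Mrps10 (0.58), Mrpl18 (0.55), Mrps6 (0.55) and Mrps11 (0.55). Mrpl23 (0.80) and Mrps28 (0.72) had larger values than Mrps22 and did not pass (edgeR adjusted p = 0.128 and 0.0636). The other lower genes were Mrps17 (−0.37) and Mrps2 (−0.23).

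This comparison also turned on striatum WT replicate 1. Without it, 21 genes were higher and 16 lower in WT cerebellum (37 of 76, 48.7%), against 71.2% of all genes, and the median was 0.05. All 21 genes called with all libraries were among the 37. Mrpl52 then had a log2 difference of −0.79, from 12.8, 12.9, 13.1 and 11.6 CPM in WT cerebellum against 24.5 and 19.3 CPM in WT striatum replicates 2 and 3. Mrpl24 stood at −0.79, Mrpl33 at −0.78 and Mrps22 at 0.55. With the length trend removed, 21 were higher and 7 lower, against 67.9% of all genes called.

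**Figure D5:**
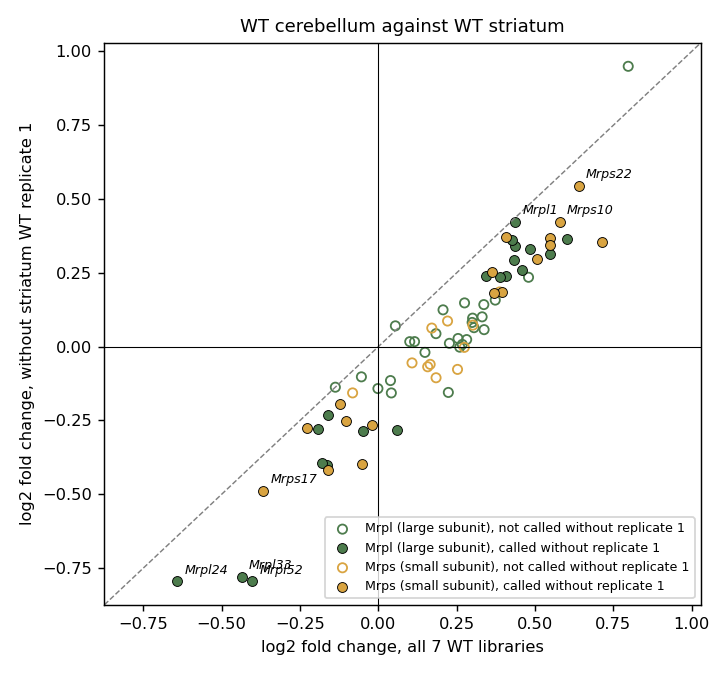
Log2 difference of each gene between WT cerebellum and WT striatum, with all 7 WT libraries on the horizontal axis and without striatum WT replicate 1 on the vertical axis; filled points passed without that library. Mrps22 stays near the top at 0.55, while Mrpl52, Mrpl33 and Mrpl24 lie at the bottom between −0.79 and −0.78.

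Levels were compared between genes as CPM per kilobase of the principal transcript, scaled over all 14 libraries. The order depends on that length. Per kb of all exons, Mrpl41 stood at 41.4, Mrpl53 at 34.4, Mrpl20 at 24.3 and Mrpl42 at 6.87 in WT cerebellum. Per kb of the principal transcript, the median over the family in WT cerebellum was 19.2 CPM, with 19.8 for Mrpl and 15.7 for Mrps genes. Mrpl20, which is needed early in assembly of the bacterial large subunit, was highest, at 56.1 ± 1.67 CPM per kb in cKO cerebellum and 52.97 ± 2.87 in WT cerebellum (SD, n = 4 each). Mrpl41 followed at 48.3 ± 2.26 in cKO and 47.4 ± 0.776 in WT. Mrpl53 (39.6 ± 0.971 in cKO and 39.1 ± 2.70 in WT) and Mrpl42 (40.2 ± 1.98 and 38.0 ± 2.25) came next and did not differ beyond their spread. Among Mrps genes in WT cerebellum, Mrps21 (34.1 ± 2.14 CPM per kb), Mrps18a (33.9 ± 1.83) and Mrps12 (32.9 ± 2.12), the last a protein of the decoding centre, did not differ beyond their spread, and Mrps34 followed at 29.1 ± 1.26. Of the exon bases of Mrpl53, 88.0% overlap Gm42688, and of those of Mrps34, 63.4% overlap Mapk8ip3. Mrps34 also overlaps Nme3 on the same strand, which the 63.4% does not count. Reads of these bases are of uncertain origin. The lowest were Mrps36 (0.731 ± 0.339) and Mrpl23 (0.914 ± 0.317), then Mrpl47 (3.72 ± 0.189) and Mrps35 (4.63 ± 0.387). The values of Mrps36 and Mrpl23 rest on 1 to 17 and 4 to 24 counts per library over all 14 libraries, so their levels are uncertain.

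In WT striatum the order was similar, with Mrpl20 at 43.9 ± 15.8, Mrpl52 at 39.7 ± 22.9, Mrpl41 at 38.4 ± 10.7, Mrps18a at 34.3 ± 11.7 and Mrpl33 at 32.9 ± 16.0 CPM per kb (SD, n = 3). Among Mrps genes, Mrps21 (28.6 ± 13.8), Mrps12 (26.7 ± 8.39) and Mrps9 (23.4 ± 4.81) came after Mrps18a. Lowest in WT striatum were Mrps36 (0.353 ± 0.1998), Mrpl23 (0.524 ± 0.0886), Mrpl48 (3.26 ± 1.08) and Mrps35 (3.53 ± 0.980). These neighbours overlapped widely in their spread, apart from the step between Mrpl23 and Mrpl48. The family's median coefficient of variation was 6.61% in cKO striatum and 27.0% in WT striatum, and 4.80% over WT replicates 2 and 3 alone. In those 2 libraries Mrpl20 stood at 51.5 and 54.5 CPM per kb, Mrpl52 at 58.6 and 46.3, Mrpl41 at 44.8 and 44.3, Mrpl33 at 39.6 and 44.5 and Mrps18a at 40.4 and 41.6. Over the 76 genes, log2 WT levels per kb in the 2 tissues had a Pearson correlation of 0.97 and a Spearman correlation of 0.94, as a description. The Mrps18 paralogs are all related to bacterial S18, but only Mrps18c holds its place in the ribosome and was counted with a bacterial counterpart. They differed in level. In cerebellum, Mrps18a stood at 34.4 ± 0.647 CPM per kb in cKO and 33.9 ± 1.83 in WT, Mrps18c at 20.4 ± 1.38 and 20.8 ± 2.10, and Mrps18b at 7.22 ± 0.471 and 6.90 ± 0.327. None of the paralogs passed between genotypes in either tissue.

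A list of 12 genes known from human mitochondrial disease, which is not complete (Mrpl3, Mrpl12, Mrpl24, Mrpl44, Mrps2, Mrps7, Mrps14, Mrps16, Mrps22, Mrps23, Mrps28 and Mrps34), also gave no call between genotypes, where 0.384% of all genes were called in striatum and 7.59% in cerebellum. Their median log2 fold change was 0.18 in striatum (0.08 without WT replicate 1) and 0.06 in cerebellum. In cerebellum they ran from −0.09 for Mrpl24, at 22.2 ± 0.751 CPM in cKO and 23.5 ± 0.276 CPM in WT (SD, n = 4 each), to 0.10 for Mrps14, at 36.5 ± 1.32 CPM in cKO and 34.1 ± 1.88 CPM in WT. The 46 genes with bacterial counterparts had a cerebellar median of 0.03 with 3 called (6.52%), and the 29 mitochondria-specific genes a median of 0.03 with none called, both beside the 7.59% of all genes.

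Other genes of mitochondrial translation were looked at in lists, to be read beside the same shares of all genes called, 0.384% in striatum and 7.59% in cerebellum. The 7 mitoribosomal proteins under other symbols, with Dap3 and Ptcd3 among them, gave no call between genotypes. Their medians were 0.27 in striatum (0.05 without WT replicate 1) and 0.03 in cerebellum. Of 25 assembly factors tested none was called in either tissue. Of 15 translation factors, Gfm1, a mitochondrial elongation factor, rose in cerebellum to 63.5 ± 2.40 CPM in cKO against 55.99 ± 1.79 CPM in WT (SD, n = 4 each; log2 fold change 0.18, edgeR adjusted p = 0.0147). Oxa1l, which inserts newly made proteins into the inner membrane, fell to 43.4 ± 1.36 CPM in cKO against 49.8 ± 2.06 CPM in WT (log2 fold change −0.20, edgeR adjusted p = 0.0104). Neither passed in striatum. Of 13 tested genes of mitochondrial transcription and its regulators, none was called. The mRNAs made from the mitochondrial genome, which this ribosome translates, are not among the symbols analysed here.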

How the data were processed

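RNA sequencing of 14 mouse brain libraries was analysed from tables of raw read counts per gene, 1 per library, as the authors deposited them. Build mm10 and the tools cutadapt 1.13, HTSeq 0.6.1p1, STAR and DESeq2 are named per the submitters' processing notes. The sources used here give neither annotation nor strand setting. Counts were scaled by TMM and tested with edgeR 4.0.16's robust quasi-likelihood test (R 4.3.3) after filterByExpr (minimum count 10, minimum total 15), within each tissue, between the WT tissues, and over all 14 libraries for the interaction. Calls needed an adjusted p (Benjamini-Hochberg, over all genes tested) under 0.05. SEs are log2 fold changes over the square root of F. The scripts were tested on simulated data.

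Exon and transcript lengths are from GENCODE vM21 (GRCm38). Of the symbols, 89.8% matched by current symbol, 8.23% by synonym and 1.99% not at all. Library differences used log2 CPM with a prior count of 2.

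The family and the lists were chosen with earlier results of these data known. Named genes were all called genes, up to 12 per direction in each tissue and 4 for the interaction, the highest 4 and lowest 2 per subunit and tissue, up to 5 tissue differences per direction, the Mrps18 paralogs, the disease genes and up to 4 per other list; others were named after their values were seen. The alternatives were DESeq2 1.42.0 and its size factors, upper-quartile factors, no filter, a mean of at least 1 CPM, limma-voom (3.58.1) with quality weights, a replicate block, exon length trend removal, 1 model of all libraries and leaving out each library. Those with transcript length were added after the data had been seen.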

Additional observations from a re-analysis of the deposited data

Results flagged for a closer look

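Within the cerebellar groups of 4, 164 sets of values (each gene and summed levels) were searched for 1 library far from the other 3, by Dixon's ratio of the gap to the range with a critical value of 0.829. Chance flags about 1 group in 20, and 7 were found. In cKO, Mrpl14 had a ratio of 0.846 (replicate 2 at 11.2 CPM, with the next at 9.87), Mrps26 of 0.859 (replicate 1 at 31.4, next 34.4) and Mrps28 of 0.855 (replicate 1 at 10.7, next 11.4). In WT, Mrpl20 had a ratio of 0.913 (replicate 1 at 45.7 CPM, next 41.3), Mrps34 of 0.919 (replicate 1 at 26.1, next 28.4), Mrpl52 of 0.831 (replicate 4 at 12.2, next 13.4) and Mrps24 of 0.845 (replicate 4 at 16.3, next 17.3).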

How the results depend on the processing

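In striatum, 1 gene was called higher (Mrpl36) with limma-voom, in the model of all 14 libraries and with the trend on transcript length removed, where 1.32%, 2.44% and 0.767% of all genes were called; with DESeq2 Mrpl36 had an adjusted p of 0.0668. Voom gave striatum WT replicate 1 a weight of 0.175, against 1.06 to 1.92 for the other striatal libraries. Striatal Mrpl18 changed sign to −0.0676 with limma-voom, −0.0223 with the exon length trend removed and −0.0035 with that of transcript length. Leaving out 1 library gave 0 to 1 striatal genes called higher, a striatal median of 0.02 to 0.30, and −0.0795 to 0.331 for Mrpl18. In cerebellum the count called higher was 1 without a low-count filter (5.94% of all genes called in either direction) and with DESeq2 (8.47%), and 0 in the model of all 14 libraries (1.63%), where Mrpl36 kept its log2 fold change of 0.34 (edgeR adjusted p = 0.237). The count called lower was 0 with upper-quartile factors (7.71%), with DESeq2 and in the model of all 14 libraries. Leaving out 1 cerebellar library gave 1 to 2 higher and 0 to 1 lower (4.98% to 7.82% of all genes). The interaction for Mrpl47 changed sign to 0.0453 with limma-voom, and ran from −0.0547 to 0.0490 over the libraries left out. Between WT tissues, 10 genes were called lower with limma-voom (69.5% of all genes in either direction), 7 with the exon length trend removed (67.9%), 11 with that of transcript length (69.5%), and 1 to 16 with 1 library left out (59.4% to 71.2%). The length slope of striatum WT replicate 1 was 0.24 over genes of at least 10 CPM and 0.26 on transcript length. The cause of these changes was not tested.

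Replicate numbers were not taken to pair the samples, since the labels do not say that they do. Correlations between libraries cannot settle this. Same-numbered libraries correlated at 0.06 to 0.13 in striatum (other pairs −0.11 to 0.06) and 0.06 to 0.34 in cerebellum (others −0.52 to 0.44). Between WT tissues they correlated at −0.11 to 0.19 (others −0.20 to 0.16). In striatum 6 of 6 libraries correlated best with their own number, a hint from the data and not from the design, against 2 of 8 in cerebellum and 2 of 6 between WT tissues. With a replicate block, 2 genes were called higher and 1 lower in cerebellum, none in striatum, and 18 higher and 1 lower between WT tissues (8.43%, 0.107% and 55.9% of all genes called).

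Striatal libraries were shallower, and the median SE of a log2 fold change over the family was 0.194 there (0.103 without WT replicate 1) against 0.0556 in cerebellum.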
